A study of Mus musculus with 8 samples.

Results

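The ETS family comprises transcription factors that share a DNA-binding domain, the ETS domain. The family genes examined were Spic, Gabpa, Elk1, Elf1, Elf2, Ets1, Ets2, Etv5 and Etv6, together with Gabpb1, which encodes the partner protein of GABPA and has no ETS domain. The 10 genes were taken by name from a deposited table of 37310 genes, and all 10 had a row in it. They were chosen with results of these data known, so their differences between the groups are given as descriptions, without p-values. The treated samples were mouse 2-cell embryos cultured with 6 µM triclocarban, an antibacterial compound of soaps and other personal care products (4 libraries, abbreviated TCC). The controls were 2-cell embryos (4 libraries) whose medium held an equal volume of DMSO, the solvent. Fertilized eggs of both groups were grown in drops of G1 medium, and polyadenylated RNA was sequenced. The treatment protocol also names lower doses of TCC, and the labels of all 4 treated libraries give 6 µM. The labels give no strain, hour of collection or number of embryos per library, and do not say whether libraries of 1 group came from separate cultures. The spread that p-values are set against is thus that of the libraries, and it may be technical.

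ETS proteins bind DNA around a core of the bases GGAA, and the bases beside the core differ between subfamilies. Several of them, such as ELK1 and the members of the PEA3 subfamily, are phosphorylated by the ERK kinase cascade that lies downstream of fibroblast growth factor receptors. GABP, also known as NRF-2, is a complex of the ETS protein GABPA with a beta subunit from Gabpb1 or Gabpb2 that carries the activation domain. It is known for regulating housekeeping genes and nuclear genes of mitochondrial proteins, and mouse embryos without Gabpa die before implantation. SPIC, a relative of the blood cell factor PU.1, is known for its role in the iron-recycling macrophages of the spleen.

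The promoters of Spic and Gabpa, the members with the lowest log2 changes with a pseudocount of 1 FPKM, and of Elf2, the one member called higher, are printed to show the DNA in which ETS motifs were searched. Each window runs from 250 bases before to 50 bases after a transcript start in RefSeq (GRCm38.p6), in the direction of the gene. RefSeq and GENCODE starts need not be the same, and for Spic, Gabpa and Elf2 the RefSeq start lies inside the gene as GENCODE places it. Capitals mark 2 motifs of 7 bases found on either strand, CCGGAAG, a form bound by GABPA and most ETS proteins, and GAGGAAG, a form bound by the SPI subfamily. They end in the same 5 bases and begin differently, so no stretch matches both.
Spic, chr10:88682974-88683273, minus strand: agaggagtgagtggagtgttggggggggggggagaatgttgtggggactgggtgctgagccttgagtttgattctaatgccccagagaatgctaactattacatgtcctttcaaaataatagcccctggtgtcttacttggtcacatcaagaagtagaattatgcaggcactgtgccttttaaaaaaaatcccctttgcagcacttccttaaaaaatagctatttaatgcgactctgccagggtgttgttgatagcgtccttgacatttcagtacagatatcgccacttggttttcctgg
Gabpa, chr16:84834874-84835173, plus strand: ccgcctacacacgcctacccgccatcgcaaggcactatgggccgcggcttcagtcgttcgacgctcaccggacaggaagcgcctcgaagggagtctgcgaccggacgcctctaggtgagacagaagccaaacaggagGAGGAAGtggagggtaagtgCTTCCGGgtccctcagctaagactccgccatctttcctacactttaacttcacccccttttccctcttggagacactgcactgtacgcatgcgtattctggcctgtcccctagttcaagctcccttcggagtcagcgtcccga
Elf2, chr3:51340595-51340894, minus strand: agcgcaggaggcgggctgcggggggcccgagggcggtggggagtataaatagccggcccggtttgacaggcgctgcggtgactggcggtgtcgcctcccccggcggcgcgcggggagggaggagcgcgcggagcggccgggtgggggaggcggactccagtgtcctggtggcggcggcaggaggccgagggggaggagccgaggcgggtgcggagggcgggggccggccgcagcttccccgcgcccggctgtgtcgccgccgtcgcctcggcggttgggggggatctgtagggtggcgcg

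The Gabpa window held 1 copy of each motif. GAGGAAG began 113 bases before the RefSeq start, on the strand of the gene. CCGGAAG lay on the opposite strand (CTTCCGG in the printed letters), and its first printed base was 93 bases before the RefSeq start. Both motifs lie after the GENCODE start of Gabpa, inside the gene as GENCODE places it. The other windows of the members held neither run of letters, so those printed for Spic and Elf2 have no capitals. There were 13 windows in all, for 9 of the 10 members, and Ets1 had none. Among all 32851 windows of the RefSeq table, 8.86% held CCGGAAG and 13.6% held GAGGAAG on either strand.

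Levels are in FPKM, which scales the fragments of a gene to its length and to the size of the library, so levels can be compared between genes. Fewer embryos with a transcript and less of it per embryo cannot be told apart from such values. The number of fragments per library is not given and could not be recovered from the low values. FPKM summed to 477882 to 563651 in the TCC libraries and to 533941 to 605986 in the controls, and 11788 to 11957 genes in TCC libraries and 12828 to 13541 genes in controls reached 1 FPKM. Mitochondrially encoded genes took 11.1 to 17.6% of the sum in TCC libraries and 16.6 to 24.3% in controls. All 8 oocyte markers and all 8 markers of the 2-cell stage were above the filter described below. Of the oocyte markers 5 rose and 1 fell, and of the 2-cell markers 4 rose and 3 fell (limma), where 11.3% of all genes tested rose and 30.8% fell. The 4 that rose include Duxf3, which passed the filter only through its TCC libraries and so had to differ. Without controls 3 and 4 these counts were 3 and 0 for the oocyte markers and 1 and 1 for the 2-cell markers. The oocyte markers summed to 4790 to 7610 FPKM in TCC libraries and to 1360 to 4220 FPKM in controls, and the 2-cell markers to 231 to 738 FPKM with TCC and 454 to 592 FPKM in controls. Every oocyte marker but Zp3 had a lower mean in controls 3 and 4 than in controls 1 and 2. Btg4, the most abundant, had 2716.69, 2061.55, 892.17 and 870.07 FPKM in controls 1 to 4 and 2730.04 to 5285.5 FPKM with TCC. Zp3 had a mean of 51.0 FPKM in controls 1 and 2 and of 55.3 FPKM in controls 3 and 4. Of the 12 macrophage and blood markers, 2 were above the filter (Cd68 and the globin gene Hba-a1), 4 were at 0 in every library, among them Adgre1, Tyrobp and Hbb-bs, and the sum was 9.06 to 31.6 FPKM with TCC and 41.0 to 71.5 FPKM in controls, most of it from Hba-a1 (6.99 to 26.94 FPKM with TCC and 37.76 to 68.17 FPKM in controls), which has a near-identical copy. Of the 10 cumulus and granulosa markers, 4 were above the filter, Amh was at 0 in every library, and the sum was 9.21 to 19.2 FPKM with TCC and 22.9 to 31.5 FPKM in controls. Of the 4, Cyp19a1 and Fshr rose, and Amhr2 and Tnfaip6 fell (limma). Fshr had 1.49 to 4.75 FPKM with TCC and 0.16 to 2.57 FPKM in controls, with overlap, and was called in 10 of 16 alternatives. Tnfaip6 passed the filter only through its controls. Amhr2 made up most of the control sum, with 0.19 to 2.37 FPKM with TCC and 15.39 to 26.71 FPKM in controls. Cyp19a1 had 6.55 to 11.88 FPKM with TCC and 1.23 to 4.47 FPKM in controls. The part of these differences in the results below was not tested. Controls 3 and 4 lay apart from controls 1 and 2 for many of the genes below.

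The filter kept the 12941 genes that reached 1 FPKM in 4 or more of the 8 libraries, and these were fitted by limma on log2(FPKM + 1). A gene was called where its Benjamini-Hochberg adjusted p over all of them was under 0.05. All log2 changes are TCC minus control on this scale, which understates the change of low genes. Their median over all genes tested was -0.19. Of the 10 members, 8 passed the filter, and Etv6 did so only through its controls. By this call rule 1 member was higher (Elf2), 4 were lower (Spic, Gabpa, Etv5 and Etv6) and 3 were not called (Gabpb1, Elf1 and Ets2). Of all genes tested, 42.1% were called, 11.3% higher and 30.8% lower. Higher genes made up 26.9% of all calls, a split that was 45.3% with median-of-ratios scaling and 50.6% with quantile normalization. The 4 TCC libraries lay below all 4 controls for 4 members and above them for 1, where 30.0% and 10.2% of all genes tested did so (40.2% in either direction). Nothing is read from these counts, since the members were named with this comparison in view.

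**Figure D1:**
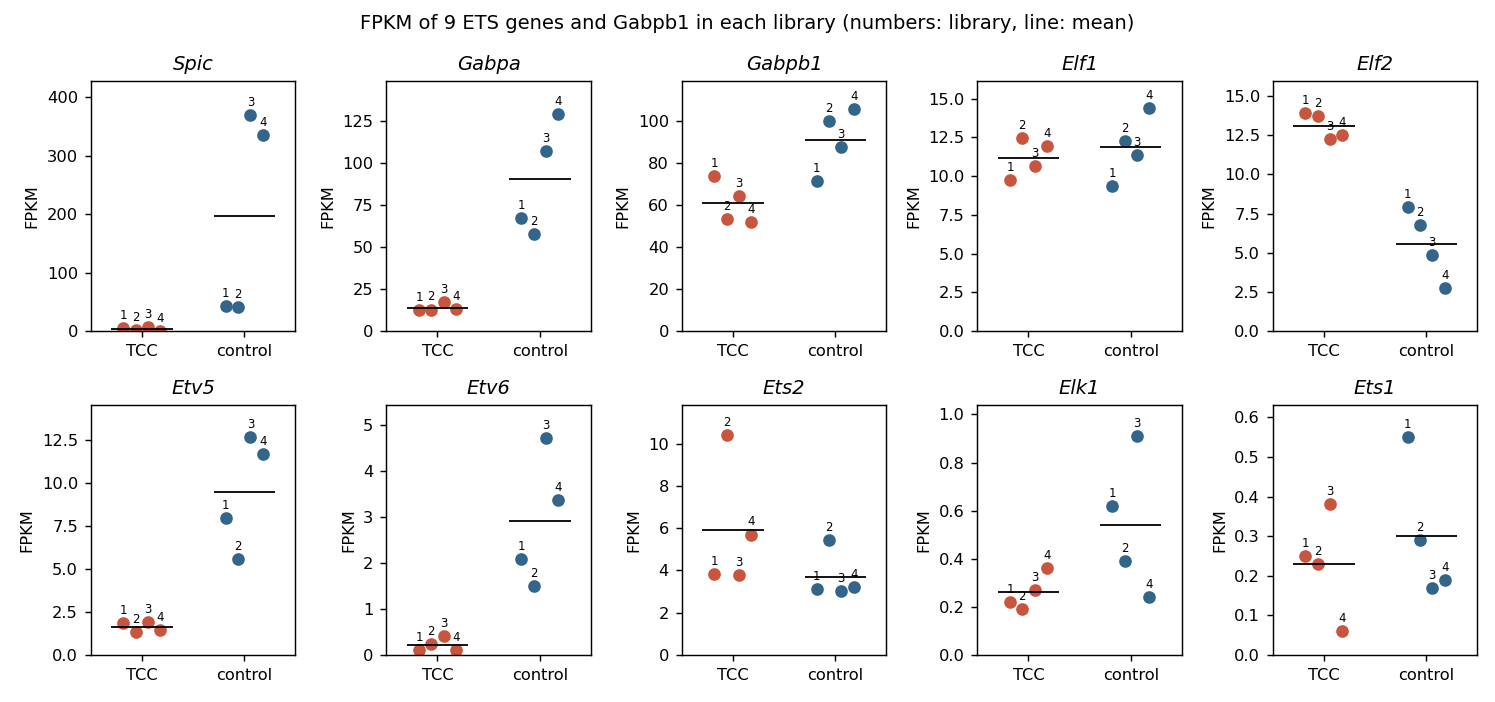
FPKM of the 10 genes in each library, with TCC libraries left and controls right in every panel, library numbers beside the points, a line at the group mean and a linear axis from 0 that differs between panels. Spic, Gabpa, Etv5 and Etv6 have all 4 TCC points below all 4 control points, Elf2 has them above, and in Spic controls 3 and 4 (370.55 and 334.99 FPKM) stand far above controls 1 and 2 (43.89 and 40.97 FPKM).

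Spic (ENSMUSG00000004359.9, chromosome 10, 88674772 to 88685015, minus strand, GRCm38) had the widest difference of the members. Its FPKM was 5.62, 1.78, 7.0 and 0.88 in TCC libraries 1 to 4, against 43.89, 40.97, 370.55 and 334.99 in controls 1 to 4. Every TCC library was below every control, and controls 3 and 4 were far above controls 1 and 2. The means were 3.82 ± 2.95 FPKM with TCC and 197.6 ± 179.8 FPKM in controls (SD, n = 4 each), giving a log2 change of -4.92 (standard error 0.76). Leaving out controls 1 and 2 made it -6.44, and leaving out controls 3 and 4 made it -3.41. The other SPI subfamily genes, Spi1, which encodes PU.1, and Spib, did not pass the filter. Spi1 had 0.00 to 0.31 FPKM with TCC and 0.08 to 0.86 FPKM in controls. Of the macrophage markers, Adgre1 and Tyrobp were at 0 in all 8 libraries. Cd68 had 1.45 to 3.27 FPKM with TCC and 2.20 to 3.87 FPKM in controls. Fcer1g was at 0 in every TCC library and had 0.00 to 0.46 FPKM in controls, and Itgam had 0.10 to 0.24 FPKM with TCC and 0.15 to 1.04 FPKM in controls. The means of Ptprc, Csf1r, Cd163 and Vcam1 were higher with TCC, with overlapping groups. Vcam1 had 0.34 to 1.24 FPKM with TCC and 0.11 to 0.55 FPKM in controls. Cd163 had 0.08 to 0.34 FPKM with TCC and 0.00 to 0.23 FPKM in controls. Ptprc and Csf1r did not exceed 0.14 FPKM in any library. The part of such cells in the Spic values was not tested.

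Gabpa (ENSMUSG00000008976.9, chromosome 16, 84834925 to 84863779, plus strand) had 12.73, 12.90, 17.53 and 13.17 FPKM in TCC libraries 1 to 4, against 67.33, 57.63, 107.24 and 129.46 FPKM in controls 1 to 4. The groups did not overlap, the TCC libraries lay close together, and controls 3 and 4 were the highest. The means were 14.1 ± 2.30 FPKM with TCC and 90.4 ± 33.7 FPKM in controls (SD, n = 4 each), giving a log2 change of -2.54 (standard error 0.30). Leaving out controls 1 and 2 gave -2.99, and leaving out controls 3 and 4 gave -2.08. Gabpb1, its partner (chromosome 2, 126627442 to 126676337, minus strand), differed less. It had 73.59, 53.39, 64.35 and 51.72 FPKM in TCC libraries 1 to 4 and 71.32, 99.99, 87.49 and 105.41 FPKM in controls 1 to 4. The groups overlapped, since TCC library 1 was above control 1, and the log2 change of -0.57 (standard error 0.24) was not called. It was -0.27 with median-of-ratios scaling. Gm27003, annotated on the strand opposite Gabpb1 with a start 421 bases away, had no row in the deposited table.

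The level of Gabpa relative to Gabpb1 was lower in every TCC library than in any control. Gabpa FPKM was 0.173, 0.242, 0.272 and 0.255 times that of Gabpb1 in TCC libraries 1 to 4, against 0.944, 0.576, 1.23 and 1.23 times in controls 1 to 4. Gabpb2, which encodes the other beta subunit and was not among the chosen genes (chromosome 3, 95181766 to 95217916, minus strand), was lower with TCC. It had 2.08, 1.5, 1.16 and 1.03 FPKM in TCC libraries 1 to 4 and 9.72, 17.92, 18.91 and 13.01 FPKM in controls 1 to 4, and the groups did not overlap. Its log2 change was -2.68 (standard error 0.28, limma adjusted p = 6.89e-05 over all genes tested). Gabpb2 made up 1.77 to 2.74% of the FPKM of both beta genes with TCC and 11.0 to 17.8% in controls.

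Gabpa stands head to head with Atp5j, which encodes a subunit of the mitochondrial ATP synthase. The annotated starts are 700 bases apart on opposite strands, and the annotated exons share 397 bases, 6.98% of the Gabpa exon length. The use of strand in the counting is not stated, so fragments in the shared bases cannot be assigned to either gene. Atp5j had 14.18 to 24.72 FPKM with TCC and 30.57 to 65.95 FPKM in controls, with no overlap, and fell by 1.3 on the log2 scale (standard error 0.31, limma adjusted p = 0.00627). Without controls 3 and 4 its change was -0.84 and was not called (limma adjusted p = 0.0549, the highest among its 16 alternatives, which went down to 0.000956).

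Etv5 (chromosome 16, 22381309 to 22439719, minus strand) encodes a PEA3 subfamily activator that is widely used as an output of fibroblast growth factor signalling. Its FPKM was 1.84, 1.32, 1.93 and 1.43 in TCC libraries 1 to 4, against 7.96, 5.55, 12.65 and 11.67 in controls 1 to 4. The groups did not overlap, and controls 3 and 4 were again the highest. The log2 change was -1.94 (standard error 0.28), and it was -2.33 when controls 1 and 2 were left out and -1.55 when controls 3 and 4 were. Etv1, of the same subfamily, had 26.12, 9.43, 25.61 and 22.58 FPKM in TCC libraries 1 to 4 and 13.83, 13.57, 6.81 and 5.21 FPKM in controls 1 to 4. TCC library 2 lay within the range of the controls, and the log2 change of 1.02 (standard error 0.40) missed the threshold (limma adjusted p = 0.0573). It passed in 6 of 16 alternatives, whose adjusted p ran from 0.011 to 0.423, and without TCC library 2 the change was 1.35 (limma adjusted p = 0.011). Etv4, the remaining PEA3 gene, did not pass the filter.

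Etv6 (chromosome 6, 134035700 to 134270158, plus strand), a repressor also called TEL that is needed for blood cell formation, had 0.11, 0.24, 0.42 and 0.11 FPKM in TCC libraries 1 to 4. In controls 1 to 4 it had 2.08, 1.49, 4.71 and 3.37 FPKM. No TCC library reached 1 FPKM and every control did, with controls 3 and 4 the highest. The log2 change was -1.61 (standard error 0.27) with the pseudocount of 1 and -3.20 with a pseudocount of 0.1, at which that of Gabpa was -2.61. With the pseudocount of 1 it was -2.04 when controls 1 and 2 were left out and -1.19 when controls 3 and 4 were.

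Elf2 (chromosome 3, 51252720 to 51340663, minus strand), an ELF subfamily gene, had the opposite direction. Its FPKM was 13.94, 13.70, 12.23 and 12.51 in TCC libraries 1 to 4, against 7.91, 6.77, 4.83 and 2.76 in controls 1 to 4. All TCC libraries were above all controls, and controls 3 and 4 were the lowest. The log2 change was 1.17 (standard error 0.30), and 1.59 without controls 1 and 2 and 0.76 without controls 3 and 4. Its relative Elf1 (chromosome 14, 79481194 to 79582494, plus strand) had 9.77, 12.46, 10.64 and 11.92 FPKM in TCC libraries 1 to 4 and 9.38, 12.27, 11.34 and 14.42 FPKM in controls 1 to 4. The groups overlapped almost wholly, and the log2 change of -0.07 (standard error 0.24) became 0.21 with median-of-ratios scaling and 0.35 with quantile normalization. The start of Elf1 lies 326 bases from that of Wbp4 on the opposite strand, and their exons share 327 bases. Wbp4, which encodes a splicing-associated protein, had 5.61 to 7.02 FPKM with TCC and 9.19 to 12.56 FPKM in controls. Its log2 change of -0.62 was called (standard error 0.23, limma adjusted p = 0.0494), but in only 4 of 16 alternatives, whose adjusted p ran from 0.0326 to 0.523.

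Ets2 (chromosome 16, 95702075 to 95721051, plus strand), known for its role in the trophoblast, had 3.83, 10.40, 3.78 and 5.70 FPKM in TCC libraries 1 to 4 and 3.12, 5.46, 3.04 and 3.21 FPKM in controls 1 to 4. Library 2 was the highest in each group, and the groups overlapped. The log2 change of 0.49 (standard error 0.33) was not called, and it was 0.22 without TCC library 2. Elk1, which encodes a partner of the serum response factor, and Ets1, the gene after which the family is named, did not pass the filter. Elk1 had 0.19 to 0.36 FPKM with TCC and 0.24 to 0.91 FPKM in controls, and Ets1 had 0.06 to 0.38 FPKM with TCC and 0.17 to 0.55 FPKM in controls, so the groups overlapped for both genes.

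The order of the 10 levels differed between the groups. In TCC libraries Gabpb1 led with a mean of 60.8 FPKM and did not overlap with the next, Gabpa at 14.1 FPKM. Gabpa, Elf2 (13.1 FPKM) and Elf1 (11.2 FPKM) followed with overlapping ranges, and then Ets2 (5.93 FPKM), Spic (3.82 FPKM) and Etv5 (1.63 FPKM), each overlapping its neighbour. Elk1, Ets1 and Etv6 were lowest, at 0.261, 0.228 and 0.223 FPKM. In controls Spic, Gabpb1 and Gabpa led with overlapping ranges, and the lowest Gabpa value stood clear of Elf1 at 11.9 FPKM. Elf1, Etv5, Elf2, Ets2 and Etv6 followed, each overlapping its neighbour, and Elk1 and Ets1 stood below them.

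The family outside the chosen genes was represented by 17 further ETS genes and Gabpb2. Of these 18, 6 passed the filter, and 1 rose, 2 fell and 3 did not pass the threshold (limma, adjusted over all genes tested), where 11.3% of all genes tested rose and 30.8% fell. Their median log2 change was -0.27, where that of all genes tested was -0.19. Ehf, an epithelial ETS gene (chromosome 2, 103263433 to 103303278, minus strand), rose with TCC. It had 183.45, 108.19, 122.14 and 159.16 FPKM in TCC libraries 1 to 4 and 86.24, 56.24, 32.94 and 52.80 FPKM in controls 1 to 4. Every TCC library was above every control, and the log2 change was 1.36 (standard error 0.32, limma adjusted p = 0.00513). Elf3, a relative of Ehf also known from epithelia (chromosome 1, 135253575 to 135258568, minus strand), fell. It had 5.50, 4.90, 7.94 and 4.28 FPKM in TCC libraries 1 to 4 and 23.75, 24.67, 13.34 and 11.27 FPKM in controls 1 to 4, so that here controls 1 and 2 were the higher pair. Its log2 change was -1.49 (standard error 0.32, limma adjusted p = 0.00306). The calls of Ehf, Elf3 and Gabpb2 kept their direction and their side of the threshold in all 16 alternatives. Etv1 (above), Elk4 and Erg, which are named here to complete the tested genes, did not pass. Elk4, another partner of the serum response factor, had 23.57 to 30.50 FPKM with TCC and 24.93 to 44.96 FPKM in controls (limma adjusted p = 0.434). Erg had 1.27 to 4.32 FPKM with TCC and 2.29 to 4.01 FPKM in controls (limma adjusted p = 0.513).

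**Figure D2:**
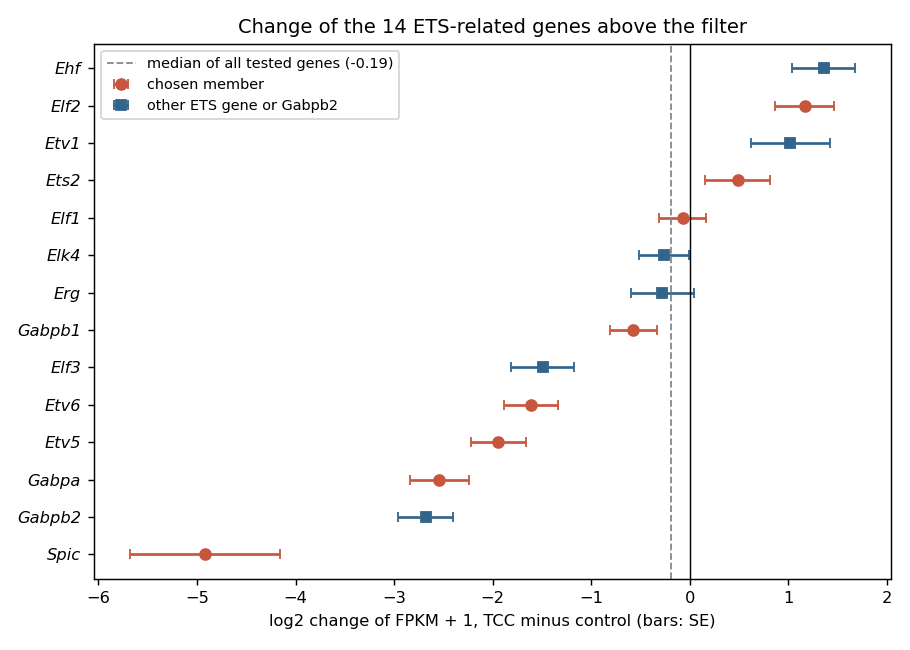
Log2 change of FPKM + 1, TCC minus control, for the 8 chosen genes and 6 others that passed the filter, with bars of 1 standard error and a dashed line at the median of all genes tested (-0.19). Spic at -4.92 lies furthest to the left, Gabpb2 (-2.68) and Gabpa (-2.54) lie side by side, and Ehf (1.36) and Elf2 (1.17) lie furthest to the right.

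The make-up of the family's transcripts differed as well. The FPKM of all 26 ETS genes (Gabpb1 and Gabpb2 left out) summed to 298.1, 208.3, 239.0 and 258.1 in TCC libraries 1 to 4 and to 318.3, 265.4, 601.9 and 599.2 in controls 1 to 4. The sums overlapped between TCC library 1 and control 2, and only controls 3 and 4 stood far above the rest. Ehf led in all 4 TCC libraries, with 61.5, 51.9, 51.1 and 61.7% of the sum. In controls 1 to 4 it held 27.1, 21.2, 5.5 and 8.8%. Spic held 1.9, 0.9, 2.9 and 0.3% in TCC libraries 1 to 4, against 13.8, 15.4, 61.6 and 55.9% in controls 1 to 4, and it led in controls 3 and 4. Gabpa held 4.3 to 7.3% with TCC and 17.8 to 21.7% in controls, an even share in both pairs of controls. Such shares are set against each other, so a fall of one raises the rest.

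**Figure D3:**
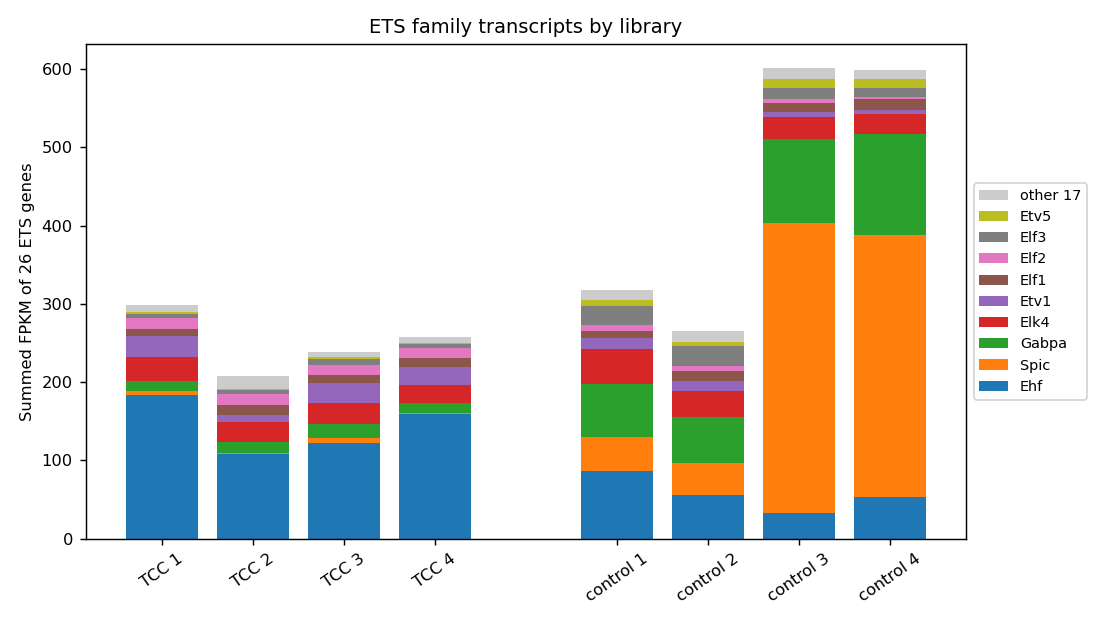
FPKM of 26 ETS genes stacked by gene in each library, with the TCC libraries left and the controls right. Ehf fills over 50% of each TCC bar (51.1 to 61.7%), while Spic and Gabpa fill most of the bars of controls 3 and 4, whose sums are 601.9 and 599.2 FPKM.

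The tested genes whose profiles over the 8 libraries were most like those of Spic and Gabpa were found by the root mean square difference of log2(FPKM + 1), centred on each gene's mean, among 10541 genes. Tested genes without a symbol, or with symbols of Gm plus digits, ending in Rik or containing -ps, were left out of this ranking. The likenesses are descriptions over 8 libraries that fall into 2 groups. Timd2, a cell-surface receptor gene of the TIM family, was nearest to Spic, with a difference of 0.65 log2 units. It had 2.37 to 10.87 FPKM with TCC and 39.62, 59.56, 304.82 and 245.60 FPKM in controls 1 to 4. Rps27, a ribosomal protein gene (0.76), and Ctsc, the gene of cathepsin C (0.80), came next. Rps27 belongs to genes with processed copies elsewhere in the genome, and how shared reads were counted is not stated. The profiles nearest to Gabpa were closer, with a difference of 0.11 for Zc3hc1, which encodes a nuclear protein, and 0.12 each for Eva1a and Sva. Zc3hc1 had 4.89 to 7.84 FPKM with TCC and 25.17 to 56.28 FPKM in controls.

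Of the genes described in other cells as regulated by GABP, all 20 were above the filter, and 2 rose, 6 fell and 12 did not pass the threshold (limma). These shares are near those of all genes tested (11.3% higher and 30.8% lower). This list and the lists below were, like the members, chosen with earlier results of these data known, so their counts are descriptions. The same holds for the adjusted p of the genes named from them, most of which were picked by smallest adjusted p. The median log2 change of the list was -0.30, where that of all genes tested was -0.19. Cox4i1, a subunit gene of cytochrome c oxidase, had 37.65 to 43.20 FPKM with TCC and 108.46 to 240.25 FPKM in controls, giving a log2 change of -1.97 (standard error 0.29, limma adjusted p = 0.000352). Cox7c, of the same enzyme, had 5.87 to 11.96 FPKM with TCC and 17.99 to 35.81 FPKM in controls, a change of -1.76 (limma adjusted p = 0.00101). Skp2, a component of a ubiquitin ligase of the cell cycle, had 7.46 to 10.63 FPKM with TCC and 20.52 to 32.59 FPKM in controls, a change of -1.41 (limma adjusted p = 0.00131). Tfb1m, which encodes a mitochondrial rRNA methyltransferase, rose, with 13.69 to 21.90 FPKM with TCC and 4.18 to 7.46 FPKM in controls, a change of 1.54 (limma adjusted p = 0.00106). The most abundant gene of the list, Cox8a, had 354.41 to 851.25 FPKM with TCC and 585.53 to 825.34 FPKM in controls and did not pass (limma adjusted p = 0.779). The remaining called genes, picked with their values known, were Cox7b at -1.25, the mitochondrial transcription factor gene Tfb2m at -1.42, Cox6a1 at -0.97 and Sdhd, a subunit gene of succinate dehydrogenase, at 1.08. After median-of-ratios scaling 5 of the list were higher and 6 lower.

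Genes of the ERK cascade, from the receptors to the kinases, were above the filter in 22 of 24 cases. Of these 2 rose, 5 fell and 15 did not pass the threshold (limma), where 11.3% of all genes tested rose and 30.8% fell. The median log2 change of the list was -0.24, near the -0.19 of all genes. Both MEK genes, which encode the kinases that activate ERK, were called, in opposite directions. Map2k2 had 3.18 to 5.44 FPKM with TCC and 13.44 to 20.30 FPKM in controls, giving a log2 change of -1.75 (standard error 0.26, limma adjusted p = 0.000334). Map2k1 had 189.21, 280.53, 192.22 and 192.96 FPKM in TCC libraries 1 to 4 and 126.95, 138.46, 57.59 and 70.48 FPKM in controls 1 to 4. Its change was 1.19 (standard error 0.32, limma adjusted p = 0.0118), and it was not called without controls 3 and 4 (0.66, limma adjusted p = 0.0848, where its 16 alternatives began at 0.000802). Hras, a RAS gene, had 3.27 to 5.05 FPKM with TCC and 7.75 to 12.49 FPKM in controls (log2 change -1.19, limma adjusted p = 0.00317). Braf changed by -1.0 (limma adjusted p = 0.00716) and missed the threshold after quantile normalization, with a change of -0.61. Also called, and picked with their values known, were Sos1, an activator of RAS, at -1.39 and the ERK-activated kinase gene Rps6ka3 at 0.91. Their groups overlapped, and they passed in 7 and 8 of 16 alternatives. The count of higher genes was 0 without controls 3 and 4, and 1 without TCC library 1, 3 or 4 or without control 2, 3 or 4.

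Genes widely used as transcriptional outputs of ERK and ETS factors fell in 6 of the 12 that passed the filter, of 15 in all, and rose in 0 (limma), where 30.8% of all genes tested fell and 11.3% rose. At an unadjusted p under 0.05 none of the 12 was higher either, and 6 were lower, but the shares of all genes above are for adjusted p. The list was chosen with earlier results of these data known, so nothing is read from these counts. The median log2 change of the 12 genes was -1.0, and that of all genes tested was -0.19. This median lies in a gap that holds no gene, between Myc at -1.64 and the next gene at -0.36. It was -0.51 without controls 1 and 2. Spry2, a feedback inhibitor of the cascade, had 8.02, 4.26, 5.99 and 3.71 FPKM in TCC libraries 1 to 4 and 40.09, 43.41, 64.91 and 83.55 FPKM in controls 1 to 4. The groups did not overlap, and its log2 change was -3.17 (standard error 0.32, limma adjusted p = 5.86e-05). Ier2, an immediate early gene, had 1.33 to 1.83 FPKM with TCC and 6.82 to 14.20 FPKM in controls, a change of -2.08 (limma adjusted p = 0.000171). Dusp5, which encodes a phosphatase of ERK, had 1.06 to 2.25 FPKM with TCC and 4.91 to 13.35 FPKM in controls, a change of -2.03 (limma adjusted p = 0.000527). Myc, which is counted among the 6, had 0.27 to 0.64 FPKM with TCC and 2.08 to 5.70 FPKM in controls. It passed the filter only through its controls, so its call is given as a description (log2 change -1.64). Spry4, the most abundant gene of the list, had 166.16 to 179.14 FPKM with TCC, between controls 3 and 4 (109.56 and 121.92 FPKM) and controls 1 and 2 (242.64 and 203.47 FPKM). It did not pass (log2 change 0.10, limma adjusted p = 0.808). Dusp6, another phosphatase gene, and Ier3 were the last called genes and were picked with their values known. Dusp6 had 5.01, 3.12, 1.49 and 1.25 FPKM in TCC libraries 1 to 4 and 34.01, 25.87, 5.57 and 5.50 FPKM in controls 1 to 4, and changed by -2.04 on the log2 scale (limma adjusted p = 0.0134). Its order of controls was the reverse of that of Etv5 and Spic, with controls 1 and 2 the highest. Without controls 1 and 2 neither Dusp6 (-0.93) nor Ier3 (-0.77) was called (Dusp6 was not called without the filter either), and 2 genes of the list were higher and 4 lower.

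Cofactors described as binding ETS proteins were lower in 3 of 14 that passed the filter and higher in 0 (limma), of 18 in all, where 30.8% of all genes tested were lower and 11.3% higher. Their median log2 change was -0.14, and that of all genes tested was -0.19. At an unadjusted p under 0.05, 2 were higher and 6 lower. The shares of all genes above are for adjusted p and cannot be set beside these counts. Hdac1, a histone deacetylase gene, had 18.71 to 25.33 FPKM with TCC and 59.41 to 102.61 FPKM in controls, giving a log2 change of -1.85 (standard error 0.26, limma adjusted p = 0.000253). Cbfb, which encodes the partner of RUNX proteins, had 2.35 to 4.30 FPKM with TCC and 9.66 to 23.37 FPKM in controls, a change of -1.86 (limma adjusted p = 0.00108). Hcfc1, which encodes a host cell factor, had 4.30 to 8.91 FPKM with TCC and 7.86 to 18.60 FPKM in controls, with overlap. Its change of -0.95 (limma adjusted p = 0.0272) passed in 7 of 16 alternatives, whose adjusted p ran from 0.00934 to 0.198. Ep300, an acetyltransferase gene, changed by -1.01 and missed the threshold (limma adjusted p = 0.0503), with 16.08 FPKM in TCC library 2 and 3.78 to 6.42 FPKM in the other TCC libraries. It passed in 4 of 16 alternatives, whose limma adjusted p ran from 0.00374 to 0.268. Among these were the fits without TCC library 2 (-1.38, limma adjusted p = 0.00374), without control 1 (limma adjusted p = 0.0364) and with robust eBayes (limma adjusted p = 0.0499). The count of higher cofactors depended on the scaling, with 4 higher and 2 lower under median-of-ratios scaling, and 2 and 2 under quantile normalization. It was also 3 higher and 5 lower without TCC library 2, and 1 higher and 6 lower without control 1.

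**Figure D4:**
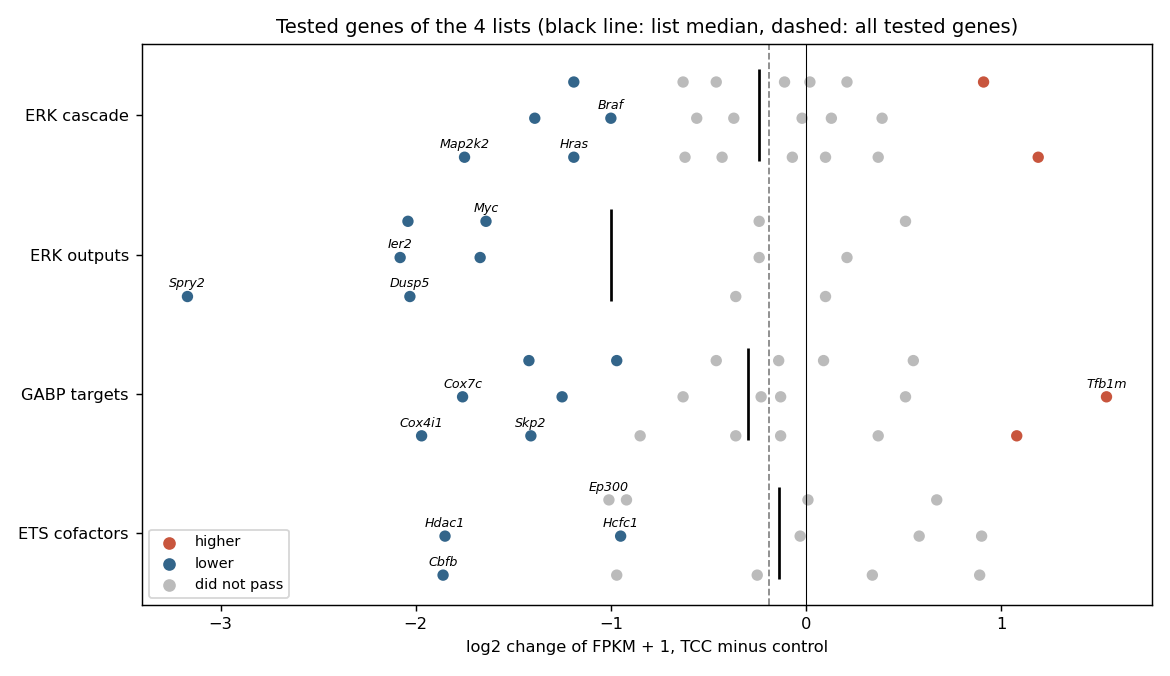
Log2 change of FPKM + 1, TCC minus control, of every gene above the filter in the 4 lists, coloured by its call, with a black line at the list median and a dashed line at the median of all genes tested (-0.19). The ERK outputs have their median at -1.0, in a gap between 6 called genes (-3.17 to -1.64) and the next gene at -0.36. The called gene at the edge of this gap, Myc, passed the filter only through its controls. The medians of the ERK cascade (-0.24), GABP targets (-0.30) and ETS cofactors (-0.14) lie near that of all genes.

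Promoter windows could be matched by symbol for 8765 of the 12941 genes tested, 67.7%, so that nothing is said about the tested genes as a whole, and the following describes only the genes with a window. The 1808 tested genes with CCGGAAG on either strand had a median log2 change of -0.27, with 10.3% higher and 33.1% lower. The 6957 without it had a median of -0.14, with 11.6% higher and 29.2% lower. Genes with the motif also had a higher median FPKM, 9.10 with TCC and 13.6 in controls, where those without had 6.70 with TCC and 9.13 in controls, and their windows had a median GC content of 61.3%, against 60.0%. The part of expression level and GC content was not tested. The 1295 tested genes with GAGGAAG had a median log2 change of -0.09, with 11.4% higher and 27.9% lower, and the 7470 without it a median of -0.18, with 11.3% higher and 30.4% lower. Genes with GAGGAAG had a mean of 1.5 windows each, against 1.23 for those without it, and the part of this was not tested.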

How the data were processed

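The authors deposited FPKM values, in 1 table with a column per library (4 with TCC, 4 controls). The submitters' processing notes name mm10, STAR, StringTie, featureCounts and DESeq2 1.30.1 but not what each was used for. The sources used here do not give the annotation release, the strand setting or the handling of reads with several matches. Per the labels' protocols, reads were paired and of 150 bases, no molecular identifiers were named, and 2 library preparations are described, 1 of them with preamplified cDNA. Columns were matched to libraries by the sample description. With GENCODE M21 exon lengths, 6.2 to 8.6% of low values came within 0.02 of whole fragments (4% by chance), so no counts were recovered and no count test was run. Symbols came from a separate list of gene names. GENCODE M21 (GRCm38, the assembly of mm10) gave 1-based positions for 32620 of 37310 identifiers (87.4%).

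The fit was limma 3.58.1 (eBayes with trend) in R 4.3.3 on log2(FPKM + 1) of 12941 genes, with treatment as the only term, 6 residual degrees of freedom and a threshold of 0.05. It was also run on simulated data in which genes varied independently and few were changed. Such data lack the split between controls 1 and 2 and controls 3 and 4, so nothing is read from that run. Likeness, motifs and tables used Python 3.11.15, pandas 2.3.3 and numpy 2.4.6. Motifs were searched on both strands of RefSeq windows.

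The members and gene lists were chosen with earlier results of these data known. The genes named were the 10 members, called ETS genes and the most abundant other one, up to 4 genes per list of smallest adjusted p and the most abundant one, neighbours with a start within 1000 bases on the opposite strand, and the 3 profiles nearest to Spic and to Gabpa. Genes named outside this rule are marked, and a few genes are not reported here by name. Alternatives were a pseudocount of 0.1, no filter, median-of-ratios scaling, quantile normalization, the replicate number as a block, robust eBayes, and leaving out each library, controls 1 and 2, or controls 3 and 4 (16 in all), and motifs on the strand of the gene only.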

Additional observations from a re-analysis of the deposited data

Results flagged for a closer look

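Of 100 sets of 4 libraries examined (50 named genes in both groups), 4 held a library far from the others, and chance gives about 1 in 20. Gabpa had 17.53 FPKM in TCC library 3, where the other TCC libraries had 12.73 to 13.17. Ets2 had 5.46 FPKM in control 2, where the other controls had 3.04 to 3.21. TCC library 2 stood apart for the other two genes. Map2k1 had 280.53 FPKM there and 189.21 to 192.96 FPKM in the other TCC libraries. Dusp5 had 2.25 FPKM there and 1.06 to 1.24 FPKM in the other TCC libraries.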

How the results depend on the processing

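The counts of members called were 1 higher and 4 lower in every alternative except quantile normalization (2 higher, with Ets2) and the fit without controls 1 and 2 (5 lower, with Gabpb1). Of 128 log2 changes of the 8 tested members under the 16 alternatives, 124 kept their sign, and the 4 that did not were those of Elf1. Of 640 such changes of other named genes, 577 kept their direction and side of the threshold, 44 lost the call, 11 gained it and 8 changed sign. The sign changes were Spry4 at -0.08 and -0.03 without control 3 or 4 (0.30 at most when 1 library was left out) and -0.37 without both, Cox8a at 0.18 after median-of-ratios scaling, 0.16 without TCC library 2 (-0.26 at least when 1 library was left out) and 0.10 without controls 1 and 2, Elk4 at 0.03 after median-of-ratios scaling and Erg at 0.10 after quantile normalization. None of these was called.

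Over all genes, 1466 were higher and 3981 lower. The higher count was 2638 with median-of-ratios scaling, 2915 with quantile normalization, 2838 without controls 1 and 2, 695 without controls 3 and 4, and 953 to 1860 when 1 library was left out (971 without control 3, 953 without control 4). Those scalings gave a median of all genes of 0.06 and 0.14, where it was -0.19 as deposited. Other ETS genes had 2 higher (Etv1 added) after either scaling and without controls 1 and 2, 1 to 2 when 1 library was left out, and 4 lower with no filter. The ERK cascade had 1 higher with no filter, 0 without controls 3 and 4, and 1 to 2 when 1 library was left out, and 3 lower after quantile normalization. ERK outputs had 2 higher without controls 1 and 2. GABP targets had 5 higher after median-of-ratios scaling and 2 to 4 when 1 library was left out. Cofactors had 4 higher with median-of-ratios scaling, 2 with quantile normalization, 3 without controls 1 and 2 and 0 to 3 when 1 library was left out, and 5 lower with the replicate block and 2 to 6 when 1 library was left out. The median of CCGGAAG genes was -0.01 with median-of-ratios scaling and 0.06 with quantile normalization. That of GAGGAAG genes was 0.17 and 0.22 after these scalings, 0.03 without controls 1 and 2 and -0.25 without controls 3 and 4. With motifs on the strand of the gene only these medians were -0.33 and -0.10. Apart from the scalings, which shift all genes by construction, the cause was not tested.

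Same-numbered libraries of the 2 groups deviated together with correlations of 0.34, 0.05, 0.09 and 0.10 over genes, where those with other numbers reached 0.14, 0.08, 0.08 and 0.08. Numbers 1, 3 and 4 correlated best with their own number, a hint from the data and not the design, and number 2 did not. Not every pair was over 0.1 and no label says what a number marks, so a pairing is not taken from them, and the replicate block gave 1544 higher and 4061 lower genes over all, with Ep300 called (limma adjusted p = 0.0352). The depth is unknown, so the precision of values under 1 FPKM, such as those of Elk1, Ets1 and Etv6 with TCC, cannot be given.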

Other observations

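Among the 12 other ETS genes below the filter, all values were under 1 FPKM. Etv2, known for its role in blood and vessel formation, had 0.05, 0.00, 0.00 and 0.00 FPKM in TCC libraries 1 to 4 and 0.22, 0.54, 0.75 and 0.46 FPKM in controls 1 to 4. Spdef, an epithelial ETS gene, had 0.16, 0.00, 0.09 and 0.00 FPKM with TCC and 0.89, 0.32, 0.41 and 0.53 FPKM in controls. The groups did not overlap for either gene. Both were chosen after their values were seen and were the genes added to the lower calls when no filter was applied.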
